A study of Mus musculus with 11 samples.

Results

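Members of the glutathione peroxidase family and antioxidant enzymes that work beside it were followed as 10 genes, *Gpx1*, *Gpx2*, *Gpx3*, *Gpx4*, *Gpx7*, *Gpx8*, *Cat*, *Sod1*, *Sod2* and *Sod3*. They were found by gene symbol among the 55401 genes of the count table, and each matched 1 gene. Bulk RNA-seq was carried out on 11 libraries from 4 male C57BL6/J mice, 10 weeks of age and fed chow. All mice carried the same alleles, *Cre* recombinase driven by the rat insulin promoter (RIP), a tdTomato reporter that is silent until *Cre* removes a STOP cassette, and an *Nnat*-EGFP reporter transgene, which was hemizygous and inherited from the father. Dispersed islet cells were sorted by flow cytometry into tdTomato-negative cells (non-beta cells, 3 libraries, from mice 1 to 3) and tdTomato-positive beta cells with or without EGFP, labelled NNAT-positive and NNAT-negative (4 libraries each, from mice 1 to 4). Mouse numbers are the replicate numbers of the labels, taken to mean the same mouse in each fraction. No antibody was used in the sort, so the non-beta fraction is whatever the RIP transgene did not mark, the EGFP gate follows a transgene rather than the protein, and mouse 4 has no non-beta library.

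Superoxide is made as a by-product of respiration and by NADPH oxidases, and superoxide dismutases turn it into hydrogen peroxide. Catalase, in peroxisomes, and the glutathione peroxidases, which use glutathione as the reductant, then remove the peroxide. Beta cells are known for low catalase and glutathione peroxidase activity, and are for this reason regarded as sensitive to oxidative damage. The question asked of these data was how far each of the 10 transcripts lay below its level in non-beta cells, and whether the beta cell fractions differed from each other.

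The family divides by the residue at its catalytic site. *Gpx1* to *Gpx4* encode selenocysteine there, read from an in-frame TGA that elsewhere would be a stop codon, whereas *Gpx7* and *Gpx8* encode cysteine. The codon is shown in capitals, with 5 codons on each side (33 bases, coding strand), in the gencode M21 transcripts on GRCm38; each stretch lies within 1 coding exon.
Gpx1, chr9:108339436-108339468, plus strand: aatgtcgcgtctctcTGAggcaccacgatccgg
Gpx2, chr12:76795241-76795273, minus strand: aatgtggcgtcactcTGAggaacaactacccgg
Gpx3, chr11:54907241-54907273, plus strand: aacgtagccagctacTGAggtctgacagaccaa
Gpx4, chr10:80054722-80054754, plus strand: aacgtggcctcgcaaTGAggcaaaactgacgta
Gpx7, chr4:108403415-108403447, minus strand: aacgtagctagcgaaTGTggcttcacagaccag
Gpx8, chr13:113045646-113045678, minus strand: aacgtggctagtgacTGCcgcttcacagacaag
The annotation marks the TGA as selenocysteine in each of the 4 genes that have it. Genes of both kinds were among those lower in beta cells.

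Total counts were 30420352 to 43238376 per library. The sort could be read in the counts: the insulin genes held 17.8% to 34.4% of all counts in the beta cell libraries and 0.970% to 2.34% in the non-beta libraries, and 8 of 8 beta cell markers were higher in beta cells. Non-beta cells had the markers of alpha, delta, PP, acinar, endothelial, mesenchymal and immune cells, and so are a mixture. *Nnat* itself went against the gate, with 46.0 to 101 CPM (counts scaled to a common library size) in NNAT-positive-labelled libraries and 66.5 to 153 CPM in NNAT-negative-labelled ones. It was lower in the former in 4 of 4 mice (log2 fold change -0.62, SE 0.17, unadjusted *p*=0.00484, adjusted *p*=0.444 in edgeR's quasi-likelihood test, and 0.00798 in DESeq2). The fractions are therefore called here by the labels of their libraries. Whether the 2 labels were exchanged between the beta cell fractions was not settled by these data. If they were, the sign of each difference between these fractions would turn and the values of the fractions against non-beta cells would change places, while the results for beta cells as a whole would stay as given. In bulk samples fewer cells of a type and less RNA per cell cannot be told apart.

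In beta cells as a whole, 6 of the 10 transcripts were lower than in non-beta cells, 1 was higher and 3 did not pass the test. *Gpx3*, *Gpx8*, *Sod3*, *Cat*, *Gpx7* and *Gpx1* were lower, *Gpx2* was higher, and *Gpx4*, *Sod1* and *Sod2* did not pass. These calls ask for an adjusted *p* below 0.01 by the quasi-likelihood test of edgeR, with the mouse as a block and *p* adjusted over 17424 tested genes. The 2 beta cell libraries of a mouse entered this test as separate libraries. For beta cells as a whole the intervals may for this reason be too narrow and *p* too small. Of all tested genes, 23.9% were lower and 17.2% higher in beta cells. With a change of more than 2-fold asked for as well, 5 of the 10 were lower and 1 was higher, beside 18.9% and 6.22% of all tested genes. The median log2 fold change of the 10 was -1.55, and that of all tested genes -0.10. The ranges of CPM did not overlap between the 8 beta cell and 3 non-beta libraries for the 6 lower genes, a property of 26.2% of tested genes, and for *Gpx2* and *Sod2*, which lay higher without overlap as did 16.5% of tested genes. All 10 passed the filter on low counts, but *Gpx8* only through its level in non-beta cells, so that it could hardly enter the test without differing. Of the 9 others 5 were lower and 1 was higher, 4 and 1 by more than 2-fold, and their median log2 fold change was -0.78.

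**Figure D1:**
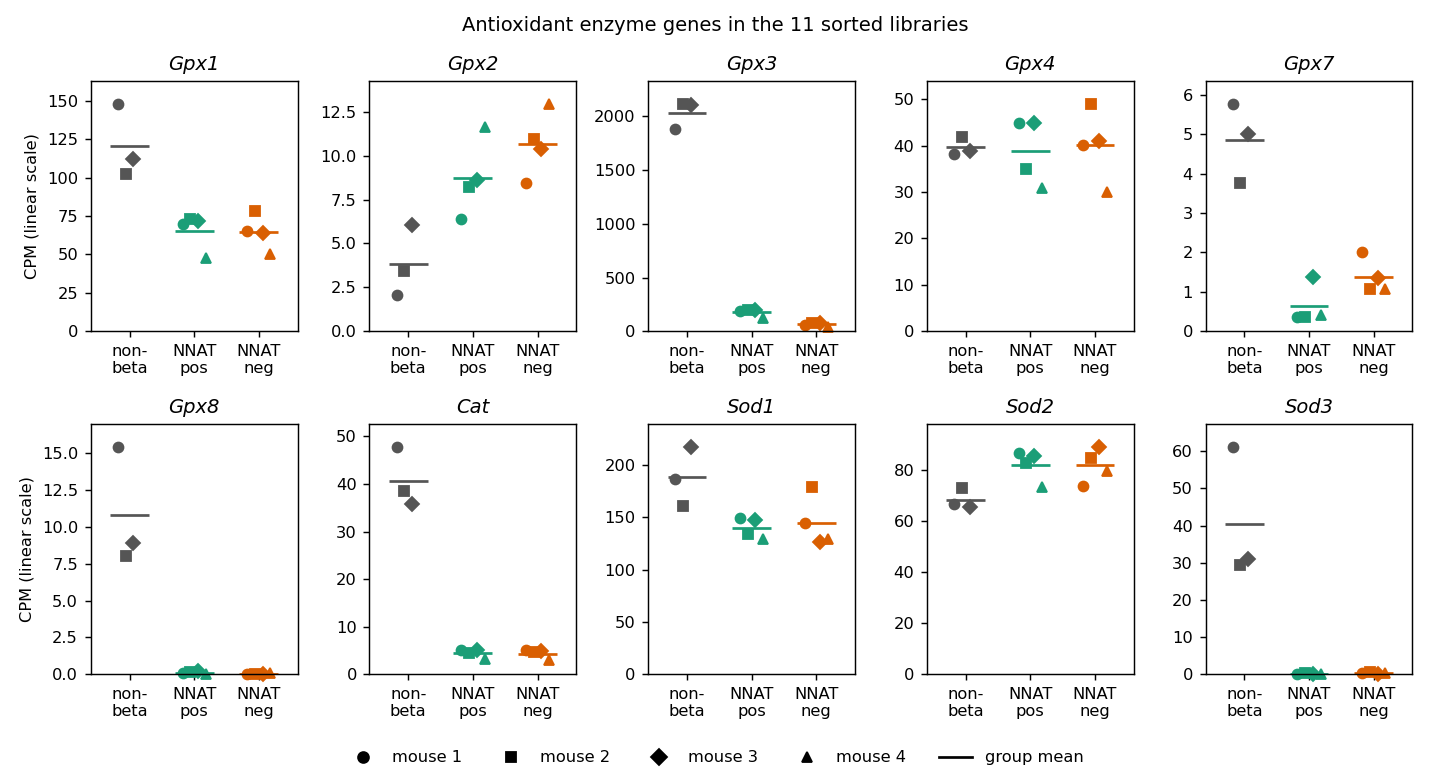
CPM of the 10 genes in each library on linear axes that start at 0, by sorted fraction, with a symbol for each mouse and a line at the group mean. *Gpx3*, *Gpx8*, *Cat* and *Sod3* fall from non-beta levels to near the axis in both beta cell fractions, *Gpx2* lies higher in beta cells, and the ranges of *Gpx4* overlap in all fractions.

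*Gpx3* encodes the secreted glutathione peroxidase of plasma and extracellular fluid (chr11:54902453-54910377, plus strand). Its level was 1880, 2118 and 2108 CPM in the non-beta libraries of mice 1, 2 and 3. It was 184, 201, 195 and 124 CPM in NNAT-positive-labelled libraries of mice 1 to 4, and 57.8, 79.6, 76.7 and 40.6 CPM in NNAT-negative-labelled ones. The 3 fractions formed 3 separate bands, and in each beta cell fraction mouse 4 was the lowest. Beta cells as a whole were 17.4-fold lower than non-beta cells (95% interval 15.1 to 20.0, log2 fold change -4.12, SE 0.09, adjusted *p*=1.46e-09 in edgeR's quasi-likelihood test). By fraction, the level was 10.4-fold lower in NNAT-positive-labelled libraries (8.79 to 12.2) and 29.1-fold lower in NNAT-negative-labelled ones (24.5 to 34.6), and lower in 3 of 3 mice in both.

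*Gpx1* encodes the cytosolic and mitochondrial enzyme found in most cells (chr9:108338903-108340343, plus strand). Non-beta cells had 148, 103 and 112 CPM, the NNAT-positive-labelled libraries 69.6, 73.1, 71.5 and 47.5 CPM, and NNAT-negative-labelled ones 65.2, 78.5, 63.8 and 50.6 CPM. Every beta cell library lay below every non-beta library, while the ranges of the beta cell fractions overlapped. The difference was 1.71-fold (95% interval 1.43 to 2.04, log2 fold change -0.78, SE 0.11, adjusted *p*=0.000234). Within mice 1, 2 and 3 the log2 difference from non-beta cells was -1.09, -0.49 and -0.65 in NNAT-positive-labelled libraries. In NNAT-negative-labelled ones it was -1.18, -0.39 and -0.81.

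*Gpx2* encodes the enzyme best known from the lining of the gut (chr12:76792333-76795554, minus strand), and was the only one of the 10 that was higher in beta cells. It had 2.07, 3.42 and 6.02 CPM in non-beta cells, 6.41, 8.23, 8.64 and 11.6 CPM in NNAT-positive-labelled libraries, and 8.43, 11.0, 10.4 and 12.96 CPM in NNAT-negative-labelled ones. The highest non-beta value, of mouse 3, lay just under the lowest beta cell value, of mouse 1. Beta cells were 2.43-fold higher (log2 fold change 1.28, SE 0.24, 95% interval 0.74 to 1.83, adjusted *p*=0.00131). The call rests on single mice: it did not pass 0.01 without mouse 1 (log2 fold change 1.04, adjusted *p*=0.0102) or without mouse 2 (1.16, adjusted *p*=0.0151), and over all alternatives the adjusted *p* ran from 1.73e-06 to 0.0151. For the NNAT-positive-labelled libraries alone, the fit with no block for the mouse gave 1.19 with an adjusted *p* of 0.0166, against 1.13 and 0.00536 with the block.

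*Gpx4* encodes the enzyme that reduces lipid hydroperoxides in membranes and guards against ferroptosis (chr10:80047166-80056439, plus strand). It had 38.2 to 42.0 CPM in non-beta cells, 30.8 to 45.0 CPM in NNAT-positive-labelled libraries and 30.1 to 49.1 CPM in NNAT-negative-labelled ones. The log2 fold change of beta against non-beta cells was 0.10 (95% interval -0.16 to 0.35, adjusted *p*=0.508). Its sign turned with no mouse block, at -0.0075.

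The cysteine-containing *Gpx7* and *Gpx8* encode enzymes of the endoplasmic reticulum that use peroxide in the folding of proteins. *Gpx7* (chr4:108400390-108406961, minus strand) had 5.77, 3.76 and 5.00 CPM in non-beta cells, 0.365, 0.360, 1.39 and 0.411 CPM in NNAT-positive-labelled libraries, and 2.01, 1.07, 1.36 and 1.07 CPM in NNAT-negative-labelled ones. Of the NNAT-positive-labelled libraries, that of mouse 3 stood apart from the others. Beta cells were 5.00-fold lower (2.44 to 10.3, log2 fold change -2.32, SE 0.46, adjusted *p*=0.00177), and the call was lost without mouse 1 (adjusted *p*=0.0148) or mouse 2 (0.0145). The NNAT-negative-labelled libraries alone did not pass 0.01 (log2 fold change -1.70, SE 0.54, adjusted *p*=0.0244, and 0.0027 in DESeq2). *Gpx8* (chr13:113042753-113046410, minus strand) had 712, 303 and 330 counts in the non-beta libraries. The NNAT-positive-labelled ones had 4, 6, 8 and 0 counts, and NNAT-negative-labelled ones 0, 0, 0 and 3. As pooled counts per read, the NNAT-positive-labelled fraction was at 1.02% of the non-beta level (95% interval 0.602% to 1.62%, from the exact binomial test of the pooled counts) and the NNAT-negative-labelled fraction at 0.201% (0.0413% to 0.587%). These intervals cover counting error only. The fitted value for beta cells as a whole was -7.46 on the log2 scale (SE 0.82), given as a description, since the gene passed the filter on low counts only through the group in which it is high.

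*Cat* encodes catalase (chr2:103453849-103485160, minus strand). It had 47.8, 38.6 and 35.7 CPM in non-beta cells, 5.09, 4.44, 5.10 and 3.34 CPM in NNAT-positive-labelled libraries, and 5.05, 4.66, 4.83 and 3.01 CPM in NNAT-negative-labelled ones. Beta cells were 8.33-fold lower (6.86 to 10.1, log2 fold change -3.06, SE 0.13, adjusted *p*=3.51e-08). The beta cell fractions stood at 10.8% and 10.5% of the non-beta level as pooled counts per read, and their log2 difference was 0.04 (95% interval -0.26 to 0.34). The fit gave 12.2% and 11.8%. Unlike the fit, the pooled counts do not match libraries by mouse and set mouse 4 against the non-beta libraries of other mice.

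The superoxide dismutases differed from one another. *Sod3* encodes the secreted copper and zinc enzyme that binds to the extracellular matrix (chr5:52363791-52371418, plus strand). It had 2829, 1107 and 1154 counts in non-beta libraries, 0, 12, 7 and 7 in NNAT-positive-labelled ones, and 13, 19, 1 and 12 in NNAT-negative-labelled ones. The NNAT-positive-labelled and NNAT-negative-labelled fractions were at 0.389% (0.254% to 0.570%) and 0.795% (0.579% to 1.07%) of the non-beta level, and the fit gave -7.42 on the log2 scale (SE 0.51, adjusted *p*=1.02e-06). *Sod1*, the cytosolic copper and zinc enzyme (chr16:90220754-90226329, plus strand), had 161 to 217 CPM in non-beta cells, 129 to 149 CPM in NNAT-positive-labelled libraries and 126 to 179 CPM in NNAT-negative-labelled ones. Its log2 fold change was -0.36 (95% interval -0.64 to -0.08, adjusted *p*=0.0355), which did not pass 0.01. DESeq2 called it (-0.44, adjusted *p*=0.00220), as did the main test without mouse 2 (-0.53, adjusted *p*=0.0022). *Sod2*, the manganese enzyme of the mitochondrial matrix (chr17:13006846-13040063, plus strand), had 65.5 to 73.2 CPM in non-beta cells and 73.6 to 89.1 CPM in beta cells. The log2 fold change was 0.29 (95% interval 0.11 to 0.47, adjusted *p*=0.0127), past 0.01 with DESeq2 (0.21, adjusted *p*=0.00763).

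**Figure D2:**
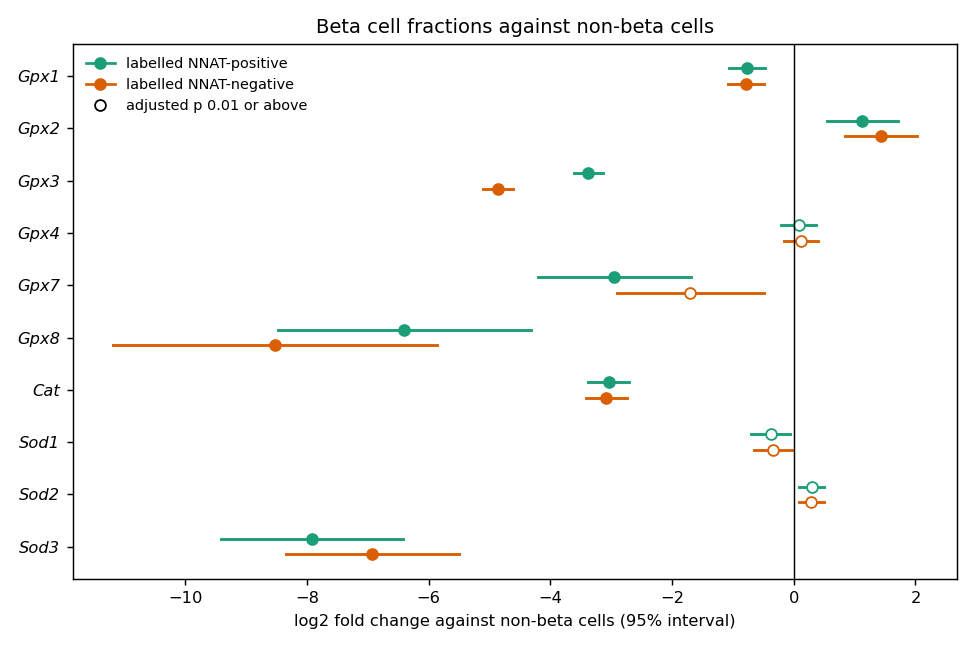
Log2 fold change of each beta cell fraction against non-beta cells with its 95% interval, from edgeR's quasi-likelihood fit; filled points have an adjusted *p* below 0.01 and open points do not. *Gpx3* is the only gene whose intervals for the 2 fractions lie apart (-3.61 to -3.14 and -5.11 to -4.61), and those of *Gpx8*, which passed the filter on low counts only through non-beta cells, are the widest.

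The comparisons of each fraction with non-beta cells share the 3 non-beta libraries and are given side by side. In the NNAT-positive-labelled libraries 6 of the 10 genes were lower and 1 higher, beside 19.1% and 15.8% of all tested genes. In NNAT-negative-labelled ones 5 were lower and 1 higher, beside 21.3% and 15.6%. Without *Gpx8* 5 and 4 were lower. The gene that made the difference was *Gpx7*, and the difference itself did not pass the test, as given below. In log2 fold changes, *Cat* had -3.04 and -3.08, *Gpx1* -0.77 and -0.78, *Gpx2* 1.13 and 1.44, *Gpx8* -6.40 and -8.53, and *Sod3* -7.91 and -6.92.

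The fits for *Gpx8* and *Sod3* rest on few beta cell counts. Endothelial markers summed to 0.110% of their non-beta level in NNAT-positive-labelled libraries and 0.0164% in NNAT-negative-labelled ones, with *Cdh5* and *Esm1* at 0 counts in the latter. Mesenchymal markers, of which *Lum* was at 0 counts in all beta cell libraries, summed to 0.0429% and 0.0234%, and markers of macrophages and leukocytes to 0.499% and 0.199%. The part of stray cells or free RNA in the residual counts was not tested.

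Compared per length, the order of the 10 transcripts differed between the fractions. Levels per kb are CPM divided by the median length of the gene's protein-coding transcripts. In non-beta cells *Gpx3* stood first, with 1277 ± 84.4 CPM per kb (SD, *n*=3), followed by *Sod1* (294 ± 44.0), *Gpx1* (154 ± 30.5), *Gpx4* (41.4 ± 2.09) and *Cat* (24.0 ± 3.71), with no overlap between neighbours. Below them *Gpx8* (11.9), *Sod2* (11.7) and *Sod3* (10.8) overlapped, as did *Gpx7* (5.98) and *Gpx2* (3.60), the last in order. In the NNAT-positive-labelled libraries *Sod1* came first with 219 ± 15.5 CPM per kb (SD, *n*=4), and *Gpx3* (110 ± 22.2) and *Gpx1* (83.1 ± 15.3) overlapped next, before *Gpx4* (40.6), *Sod2* (14.0) and *Gpx2* (8.18). In NNAT-negative-labelled ones the order was *Sod1* (226 ± 38.2), *Gpx1* (82.0 ± 14.5), then *Gpx4* (41.8) and *Gpx3* (40.0), which overlapped, *Sod2* (14.0) and *Gpx2* (10.0). *Cat* was seventh in both beta cell fractions, at 2.65 and 2.59 CPM per kb. The order depends on the length used: with the union of all annotated exons, a length chosen after the annotation was seen, *Gpx1* came before *Sod1* in all 3 fractions, and *Gpx3* before both in NNAT-positive-labelled libraries.

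**Figure D3:**
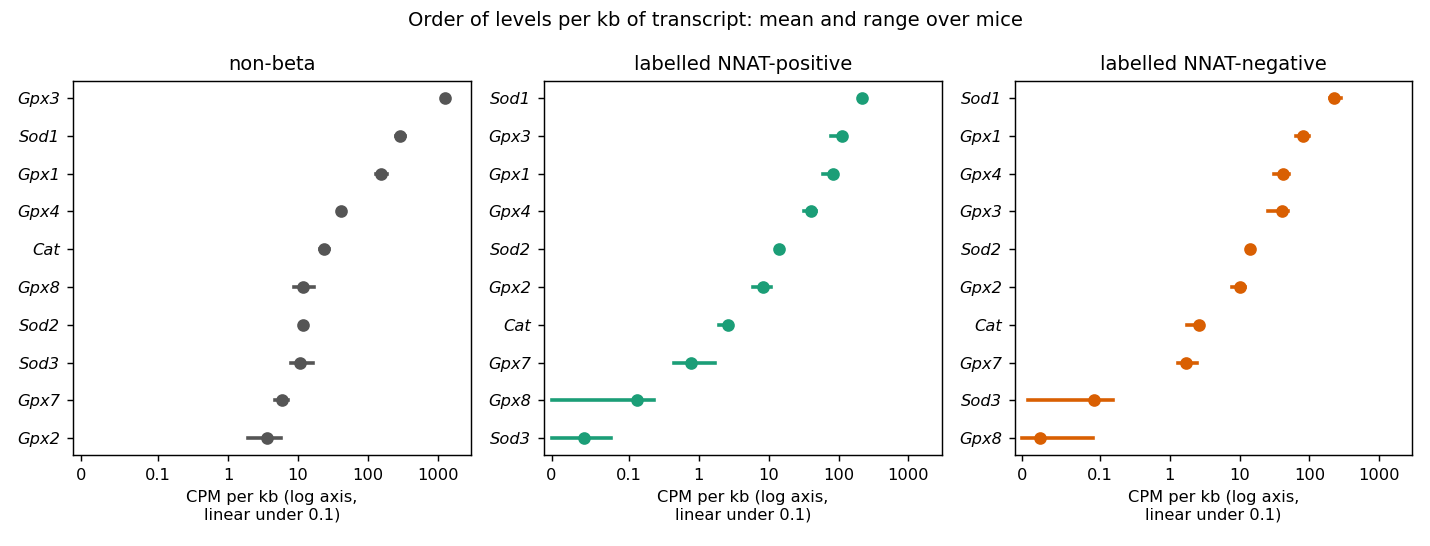
Mean level per kb of transcript of the 10 genes in each fraction, ordered from the highest, with lines from the lowest to the highest mouse, on a log axis that is linear under 0.1 CPM per kb. *Gpx3* goes from first in non-beta cells (1277 CPM per kb) to the second place (110) and the fourth (40.0) in the beta cell fractions, while *Gpx2* goes from last to sixth.

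*Gpx3* made up most of the transcripts of the 6 glutathione peroxidases followed here in non-beta cells. Of the summed level per kb of these 6 genes it held 85.4% ± 2.78 (SD, *n*=3) in non-beta cells, 45.2% ± 2.06 (SD, *n*=4) in NNAT-positive-labelled libraries and 22.5% ± 3.15 (SD, *n*=4) in NNAT-negative-labelled ones. Without *Gpx3*, the other 5 summed to 216, 133 and 136 CPM per kb in the same order of fractions. With *Gpx3* the 6 summed to 1493, 243 and 175 CPM per kb. As a sum of CPM not divided by length, their beta cell level was 0.131 and 0.0814 of the non-beta level with *Gpx3*. Without it the same sum was 0.632 and 0.648 of the non-beta level. For the superoxide dismutases the summed CPM was 0.748 and 0.763 of the non-beta level.

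Between the beta cell fractions, 1 of the 10 genes passed the test. *Gpx3* was higher in NNAT-positive-labelled libraries than in NNAT-negative-labelled ones, by 2.81-fold (log2 fold change 1.49, SE 0.09, adjusted *p*=0.000363 in edgeR's quasi-likelihood test), and in 4 of 4 mice, by 1.67, 1.34, 1.35 and 1.61 on the log2 scale. The direction follows the labels, which *Nnat* went against, and would turn if they were exchanged. The same contrast is the test of whether its fall against non-beta cells differs between the fractions. Of all tested genes 0.0517% (9 genes) were higher and 0% (0 genes) lower in this comparison, with 839 and 130 at an unadjusted *p* below 0.05 and, in DESeq2, 123 and 14 at an adjusted *p* below 0.01. The CPM ranges of *Gpx3* did not overlap between the fractions, with the higher values under the label NNAT-positive, as for 1.72% of tested genes. The call was lost without the mouse block (log2 fold change 1.47, adjusted *p*=0.0713) and without mouse 3 (1.54, adjusted *p*=0.0226). The gene was chosen with this result known.

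The summed markers of alpha, delta and PP cells were, like *Gpx3*, higher under the label NNAT-positive. The alpha cell markers summed to 2825 to 4081 CPM in NNAT-positive-labelled libraries and 1590 to 2493 CPM in NNAT-negative-labelled ones, with 3 of 7 higher under the first label in all 4 mice. The 4 delta cell markers summed to 1712 to 2463 against 587 to 1127 CPM, with 3 of 4 higher in all 4 mice, and the 3 PP cell markers to 120 to 189 against 37.5 to 64.7 CPM, with 2 of 3. Acinar markers, at 13.7 to 2115 against 45.6 to 429 CPM, overlapped. Ductal cell markers were at 64.7% and 66.0% of their non-beta level in sum, most of which was *Krt7* (211 and 224 CPM, against 113 CPM in non-beta cells, as means). Of the 7 ductal markers 5 were lower in beta cells and 1, *Krt7*, was higher (median log2 fold change -3.91). None of the markers of the alpha, delta, PP and acinar lists was at 0 in every library of a fraction. As a share of the non-beta level *Gpx3* stood at 8.63% and 3.14% as pooled counts per read (9.65% and 3.44% in the fit). The delta markers stood at 19.4% and 8.45%, the PP markers at 12.9% and 5.07% and the alpha markers at 2.32% and 1.30%. These sums were mostly *Sst*, *Ppy* and *Gcg*. The highest single markers of the lists were *Rgs2* (delta, 135% and 129%), *Tmem97* (PP, 51.0% and 53.6%) and *Ttr* (alpha, 13.1% and 12.3%), all above *Gpx3*. The part of these cells in the difference of *Gpx3* was not tested. *Cat* stood at 10.8% and 10.5% in the same comparison.

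**Figure D4:**
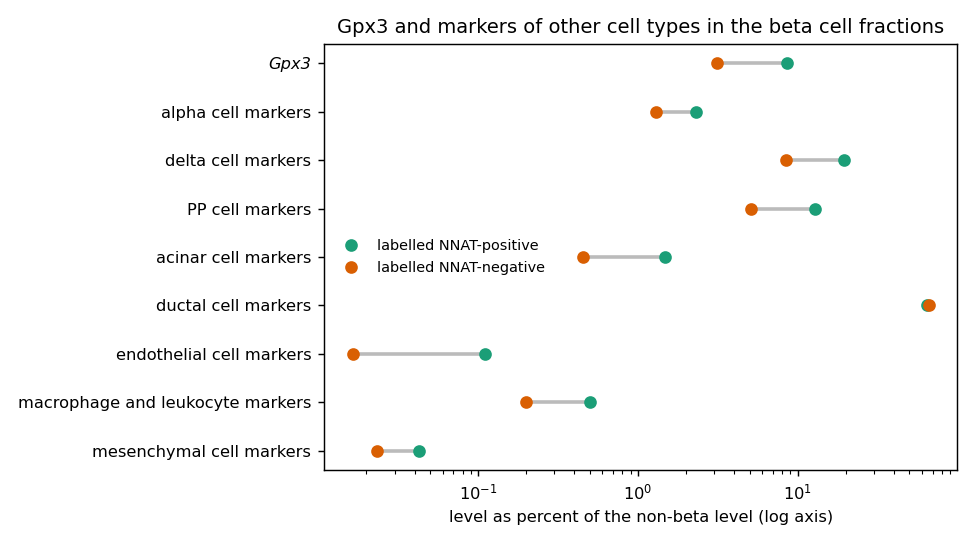
Level of *Gpx3* (pooled counts per read) and summed markers of other cell types (mean CPM) in the beta cell fractions as a percent of the non-beta level, on a log axis, green for NNAT-positive-labelled libraries and orange for NNAT-negative-labelled ones. *Gpx3* (8.63% and 3.14%) lies between the sum of the alpha markers and the sums of the delta and PP markers. Like these sums it is higher in NNAT-positive-labelled libraries.

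The other 9 genes did not pass the test between the beta cell fractions. The 95% intervals of the log2 difference were narrow for *Sod2* (-0.18 to 0.18), *Gpx1* (-0.25 to 0.27), *Gpx4* (-0.29 to 0.26), *Sod1* (-0.33 to 0.24) and *Cat*. *Gpx2* had -0.31 (-0.82 to 0.19), with lower values under the label NNAT-positive in 4 of 4 mice and an adjusted *p* of 0.918. *Gpx7* had -1.25 (-2.39 to -0.12), with an unadjusted *p* of 0.0337 and an adjusted *p* of 0.840. The intervals of *Gpx8* (-0.62 to 4.88) and *Sod3* (-2.67 to 0.69) were wide and held 0.

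The genes around these enzymes were read from 7 lists, described by their counts beside 23.9% lower and 17.2% higher among all tested genes. Like *Gpx8*, some passed the filter on low counts only through non-beta cells, among those named *Ggt5*, *Ggt1*, *Lrp2*, *Ncf4* and *Duox2*. Such genes could hardly enter the test without differing. The counts and medians of the lists include them, and how many there are was not counted. Of 16 tested genes of glutathione synthesis and recycling, 3 were lower and 5 higher in beta cells (median log2 fold change -0.02). The subunits of the rate-limiting glutamate-cysteine ligase, *Gclc* and *Gclm*, did not pass (0.19 and 0.04, adjusted *p*=0.313 and 0.844). The largest falls were in gamma-glutamyl transferases, which break down extracellular glutathione. *Ggt5* had 17.3 CPM in non-beta cells and 0.0312 and 0 CPM in the NNAT-positive-labelled and NNAT-negative-labelled fractions, and *Ggt1* 14.1, 0.315 and 0.0889 CPM. The largest rises were in *Ggt7*, a member of the same family (log2 fold change 2.22, SE 0.13), and *Chac1*, which degrades intracellular glutathione (2.02, SE 0.26).

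Of 16 peroxiredoxin and thioredoxin genes, which form the other peroxide-reducing system, 6 were lower and 2 higher (median -0.24). *Prdx4*, the peroxiredoxin of the endoplasmic reticulum, fell by 1.97 on the log2 scale (SE 0.13), from 73.5 CPM to 19.6 and 14.9 CPM. *Txnip*, an inhibitor of thioredoxin that responds to glucose, had -1.53 (SE 0.09), but -1.02 and an adjusted *p* of 0.0380 with no mouse block. *Prdx6* (0.81, SE 0.10) and *Srxn1*, the sulfiredoxin that restores oxidised peroxiredoxins (0.70, SE 0.09), were higher. Of the 12 genes of selenoprotein synthesis and selenium supply 2 were lower and 4 higher (median -0.09). *Sepsecs*, which makes the selenocysteinyl-tRNA, rose from 39.5 CPM in non-beta cells to 138 and 142 CPM (log2 fold change 1.62, SE 0.09), and *Scly*, which recovers selenium from selenocysteine, from 45.6 to 152 and 141 CPM (1.74, SE 0.11). The falls were in *Selenbp1*, a selenium-binding protein (-4.69, SE 0.44), and *Lrp2*, an uptake receptor (3.22 CPM in non-beta cells, 0.0171 and 0 CPM in the beta cell fractions), which passed 0.01 in edgeR but not in DESeq2 (adjusted *p*=0.0157).

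Of 16 genes of the NRF2 pathway, the transcriptional response to oxidants, 3 were lower and 4 higher (median -0.15). *Nfe2l2*, which encodes NRF2 itself, fell by 1.11 on the log2 scale (SE 0.11), from 64.2 CPM to 31.2 and 28.8 CPM. *Maff*, a small MAF partner, had -0.82 (SE 0.18). *Nqo1*, a quinone reductase and NRF2 target, had 1.38 (SE 0.28) and *Bach1*, a repressor of the same sites, 0.48 (SE 0.08). *Maff* and *Nqo1* did not pass with no mouse block (adjusted *p*=0.0234 and 0.0206). *Maff* also did not pass without mouse 1, 2 or 3, and *Nqo1* and *Bach1* without mouse 3.

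NRF2 acts through the antioxidant response element, whose core was searched for as TGACNNNGC on both strands of the 250 bases before each RefSeq start (GRCm38.p6). Promoters were found for 9 of the 10 genes, 4 of them for *Gpx4*, and only that of *Sod1* held a match, on the minus strand, with its first base 56 bases before the start. Of all 32851 promoters, 3338 (10.2%) held 1. The *Sod1* promoter is shown because it is the one with a match, which is in capitals.
Sod1, chr16:90220512-90220761, plus strand: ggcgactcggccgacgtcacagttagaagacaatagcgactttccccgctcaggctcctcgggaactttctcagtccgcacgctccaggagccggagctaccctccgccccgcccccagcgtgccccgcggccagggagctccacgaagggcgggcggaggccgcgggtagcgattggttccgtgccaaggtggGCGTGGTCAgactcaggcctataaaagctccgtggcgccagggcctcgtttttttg
Neither a match nor its absence in this window says whether NRF2 binds there.

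Of 10 genes of copper delivery and metallothioneins, 1 was lower and 5 were higher (median 0.27). The metallothionein *Mt1*, which binds zinc and copper, rose from 61.5 CPM to 122 and 139 CPM (log2 fold change 1.07, SE 0.13). *Mt3* had 0.466 CPM in non-beta cells and 3.62 and 3.61 CPM in the beta cell fractions (3.27, SE 0.85), a call lost with no mouse block, with RLE size factors and without mouse 1, 3 or 4 (adjusted *p* up to 0.0435). *Atox1*, a copper chaperone, fell by 0.92 on the log2 scale (SE 0.14), and *Ccs*, the chaperone that loads copper into SOD1, did not pass (-0.24, SE 0.16, adjusted *p*=0.223). Of 22 genes of peroxisome assembly and oxidation 0 were lower and 10 higher (median 0.43), by the quasi-likelihood test of edgeR, with 0 lower at an unadjusted *p* below 0.05 and 1 lower in DESeq2. *Ehhadh*, of peroxisomal fatty acid oxidation, had 1.22 (SE 0.23, adjusted *p*=0.0136 with no mouse block).

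Among genes that produce hydrogen peroxide or superoxide, 15 of 19 passed the filter on low counts, and of these 9 were lower and 3 higher. Their median log2 fold change was -6.08, or -3.83 with the 2 genes at 0 counts in all beta cell libraries set to the bound that a floor of 3 counts in a library allows. Of the 9 lower genes 7 encode NADPH oxidases or their subunits, several of them typical of phagocytes. *Ncf4*, of the phagocyte oxidase, had 6.81 CPM in non-beta cells and 0 counts in all 8 beta cell libraries, and *Duox2*, a dual oxidase of epithelia, 1.14 CPM against 0.00571 and 0 CPM. The call of *Duox2* was lost without mouse 1, 2 or 3 (adjusted *p* up to 0.0401). Both genes passed the filter only through non-beta cells, and are given as a description. The leukocyte markers, which non-beta cells had at 1074 to 2436 CPM in sum, were at 0.499% and 0.199% of that level in the beta cell fractions, and their part in these falls was not tested. *Ero1lb*, the oxidase that drives disulphide formation in the endoplasmic reticulum and makes peroxide in doing so, went from 293 CPM in non-beta cells to 3709 and 3985 CPM (13.7-fold, log2 fold change 3.78, SE 0.18). *Maob*, a monoamine oxidase of the mitochondrial surface, had 1.71 (SE 0.12).

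**Figure D5:**
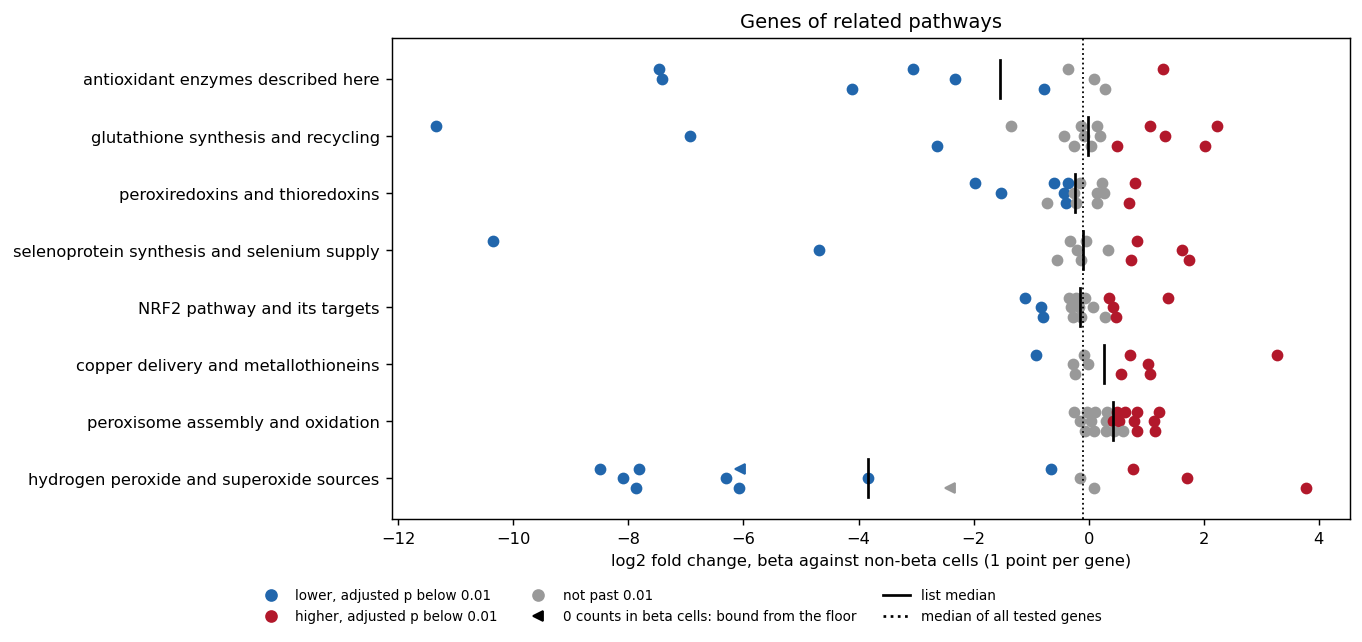
Log2 fold change of beta against non-beta cells for each tested gene of the 10 enzymes and of 7 related lists, 1 point per gene, with the median of each list and of all tested genes (-0.10). Triangles are genes with 0 counts in all beta cell libraries, drawn at the bound from the floor; the 22 peroxisomal genes lie from near 0 upwards, while the 10 enzymes spread over both sides.

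The genes whose pattern over the 11 libraries was most like that of each enzyme were taken as those with the smallest root mean square difference of centred log2 CPM, as a description. For *Gpx3* they included *Basp1* (0.35) and *Pyy* (0.36), with log2 differences between NNAT-positive-labelled and NNAT-negative-labelled libraries of 1.28 and 1.35. The genes were chosen from these same libraries, so a difference of the same sign as that of *Gpx3* follows in part from the choice. *Cat* was followed most closely by *Lamc1* (0.19), *Rhou* (0.20) and *Mmp15* (0.24), *Gpx1* by *Pkig*, *Sh3bgrl* and *Anxa6* (all 0.11) and *Gpx2* by *Ccdc30* (0.26), *Gm4419* (0.27) and *Cda* (0.28). *Gpx4*, *Sod1* and *Sod2*, which moved least, had the smallest differences, from *Cplx2* (0.08), *Maged2* (0.09) and *Smarca5* (0.05). Their own root mean squares were 0.21, 0.24 and 0.15, against 1.44 for *Cat*. The measure is not divided by a gene's own spread, so genes that move little have small differences by construction. The nearest gene was *Lrp4* for *Gpx8* (0.33), *Spaca9* for *Gpx7* (0.54) and *Pcdh18* for *Sod3* (0.87).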

How the data were processed

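The files held counts of reads per gene for 11 libraries. Per the labels and the study's methods, the authors made poly(A)-selected directional libraries, aligned reads with STAR 2.7.1a to mm10, counted them over gencode genes and deposited raw counts. Whether the counting used strand is not given in the sources used here. Total counts were 30420352 to 43238376 per library.

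Counts were tested with edgeR 4.0.16 (R 4.3.3) quasi-likelihood fits over all libraries, with TMM scaling, the filterByExpr filter and the mouse as a block. The study describes each replicate as coming from an individual mouse. Equal replicate numbers were taken to be the same mouse in each fraction. Deviations from the group means correlated more within a mouse (mean *r*=0.175, 10 pairs, 0.032 to 0.658) than between mice (-0.058, 30 pairs, -0.322 to 0.093). The ranges overlapped, and the highest value was that of the beta cell pair of mouse 4. Within a mouse the 2 beta cell libraries correlated more with each other (*r*=0.182 to 0.658) than with the non-beta library (0.032 to 0.125). The block for the mouse does not take up this difference. *p* was adjusted over 17424 genes by Benjamini-Hochberg. CPM were scaled by TMM library sizes; their log2 values had 2 counts added as a prior. Gene models came from gencode M21, which matched 55141 of 55401 genes. DESeq2 1.42.0, other scalings and filters, fewer libraries and leaving out each mouse were alternatives. The fits were tested on simulated data. The genes, lists and tests were chosen with earlier results of these data known.

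Named were the 10 genes; in each list, the 2 with the largest rise and the 2 with the largest fall among those past 0.01; the 3 nearest patterns per gene; and *Nnat*; a few genes that the rule names are not reported here. Genes named beyond these (*Gclc*, *Gclm*, *Ccs*) were chosen after their values were seen. No exon of the 10 genes shares bases with an exon of another gene. The gene bodies of *Gpx2*, *Gpx8* and *Sod1* overlap those of *Fntb*, *Cdc20b* and *Scaf4* on the opposite strand. These had 10266, 0 and 12437 counts over all libraries, and their part in the counts of the 3 enzymes was not tested. Processed pseudogenes *Gpx2-ps1* (9 counts over all libraries) and *Gpx4-ps2* (1662 counts) could share reads with *Gpx2* and *Gpx4*.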

Additional observations from a re-analysis of the deposited data

Results flagged for a closer look

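In 20 groups of 4 libraries (10 genes in each beta cell fraction), Dixon's test at 95%, which chance passes in about 5% of groups, set 3 values apart. *Gpx1* was lowest in mouse 4 of NNAT-positive-labelled libraries, at 47.5 CPM, where the other mice had 69.6 to 73.1 CPM. *Gpx7* was highest in mouse 3 of the same group, at 1.387 CPM against 0.360 to 0.411 CPM. *Gpx8* was highest in mouse 4 of NNAT-negative-labelled libraries, at 0.08202 CPM, which is 3 counts against 0 in the other mice; with the others at 0, any count would have been set apart. The fall of *Gpx3* against non-beta cells differed between the beta cell fractions, by 1.49 on the log2 scale in the contrast of NNAT-positive-labelled libraries with NNAT-negative-labelled ones.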

How the results depend on the processing

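The falls of *Gpx1*, *Gpx3*, *Cat* and *Sod3* in beta cells as a whole kept their direction and passed 0.01 under each alternative run, with log2 fold changes of -0.96 to -0.58, -4.26 to -4.08, -3.20 to -2.97 and -8.27 to -6.94. The number of the 10 higher than in non-beta cells, 1 in the main test, was 2 with DESeq2 for beta cells as a whole and 0 to 1 without each mouse in turn, 0 without mouse 1 or mouse 2. For the NNAT-positive-labelled libraries it was 0 with no replicate block, 0 with only the libraries compared and 0 to 1 without each mouse, 1 only without mouse 3. For NNAT-negative-labelled ones it was 0 with only the libraries compared and 0 to 1 without each mouse, 0 without mouse 2. Between the beta cell fractions it was 0 with no replicate block and 0 to 1 without each mouse, 0 without mouse 3. With no replicate block the lists had 3 lower peroxiredoxin and thioredoxin genes, and 1 higher NRF2, 2 higher copper and 6 higher peroxisome genes. DESeq2 gave 5 lower glutathione, 6 lower NRF2 and 1 lower peroxisome gene (*Pex19*); RLE size factors gave 5 lower NRF2 and 3 higher copper genes, and leaving the hormone genes out of the scaling 5 lower NRF2 genes. Without each mouse in turn, lower genes numbered 2 to 6 for peroxiredoxins and thioredoxins (2 without mouse 3), 1 to 2 for NRF2 and 0 to 1 for peroxisomes (*Hsd17b4* without mouse 2), and higher genes 0 to 4 for NRF2 (0 without mouse 3), 3 to 4 for copper and 6 to 10 for peroxisomes. Signs turned only near 0. *Gpx4* in beta cells had a log2 fold change of -0.0075 with no replicate block, and in NNAT-positive-labelled libraries against non-beta cells -0.0292 with no replicate block, -0.0166 with DESeq2, -0.0165 with RLE size factors and -0.0040 without the hormone genes. Between the beta cell fractions *Gpx1* had -0.0243 with DESeq2 and with RLE size factors, -0.0211 with no filter, -0.0265 without the hormone genes and -0.0232 with only these libraries. *Sod2* had -0.0329, -0.0325, -0.0293, -0.0347 and -0.0344 under the same settings in that order. Without each mouse in turn, this difference was -0.0362 to 0.0555 for *Gpx1*, -0.0697 to 0.0294 for *Sod2*, -0.104 to 0.108 for *Gpx4*, -0.124 to 0.0912 for *Sod1* and -0.0298 to 0.0772 for *Cat*. Over all tested genes the 9 genes higher in NNAT-positive-labelled libraries than in NNAT-negative-labelled ones became 1 with no replicate block, 123 with DESeq2, 29 with no filter and 0 to 5 without each mouse (0 without mouse 3). Against non-beta cells, the 2746 and 2711 genes higher in the NNAT-positive-labelled and NNAT-negative-labelled fractions became 1811 and 1738 without mouse 3, and the latter 1513 with only the libraries compared. The cause of these changes was not tested. The depth limits the reading of *Gpx8* and *Sod3* in beta cells: 3 counts in a library are 0.0649 to 0.102 CPM.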
